A study of Mus musculus with 20 samples.

Results

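Neutrophils that had entered the brain of mice with pancreatic ductal adenocarcinoma (PDAC) were compared with neutrophils circulating in the blood of such mice. The comparison took the 4 brain libraries and the 4 blood libraries of tumor mice, out of the 20 libraries of the series, and ran across all genes. Both groups came from C57BL/6 mice that had received KPC cells, a pancreatic tumor line from a mouse model driven by Pdx1-Cre, and were studied at 10 d.p.i. The study used male and female animals aged 7 to 12 weeks, and the sex of the mouse behind each library was not used here. No agent or allele differed between the groups. What differed was the tissue and its preparation. Blood was drawn by cardiac puncture and freed of red cells by lysis, the mice were perfused with PBS, and the brain was then digested with collagenase and DNAse in the warm and separated on Percoll. From both, the authors sorted live singlets that stained strongly for CD11b, a myeloid integrin, and for Ly6G, the usual surface marker of mouse neutrophils. Tissue and preparation therefore cannot be told apart in any difference below.

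Neutrophils are short-lived granulocytes that the bone marrow releases into the blood after they have made their granules. Chemokine and cytokine receptors, among them Cxcr2, govern that release and the passage from vessels into tissue. In tissue they sense damage and microbial products, switch on immediate early and NF-kB target genes within minutes to hours, and release chemokines such as Cxcl2 that draw in more neutrophils. Granule protein genes follow another programme, since they are transcribed mainly in marrow precursors under C/EBP transcription factors and decline as the cell matures.

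The brain libraries held 49942921 to 54472378 counts and the blood libraries 47388245 to 52785620. Levels are given as CPM, which here are counts relative to the TMM-scaled total of a library, and values per library are listed in the order of the replicate numbers, 2, 3, 4 and 5 for the brain and 1, 2, 3 and 4 for the blood. Nothing in the labels ties a number to a mouse, so the p-values measure the spread between libraries. That spread was estimated in 1 model over the 20 libraries of the series, not from the compared libraries alone. The sorted markers were present in every library. Itgam, which encodes CD11b, had 453, 415, 412 and 374 CPM in brain neutrophils, against 486, 474, 449.9 and 346 CPM in circulating neutrophils (adjusted p = 0.873, edgeR). Ly6g had 472, 229, 396 and 357 CPM in the brain and 316, 188, 195 and 117 CPM in the blood (adjusted p = 0.32, edgeR). A list of 18 neutrophil identity genes summed to 73951 ± 14622 CPM in the brain and 60654 ± 7356 CPM in the blood (SD, n = 4 each). At an adjusted p under 0.05, 2 of its members were higher and 2 lower in the brain (edgeR), with a median log2 fold change of -0.04. In bulk libraries, fewer cells of a type and less RNA per cell cannot be told apart.

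Across the 28762 genes that any library of the series detected, 767 were higher (2.67%) and 115 lower (0.400%) in the brain libraries. The thresholds were an adjusted p under 0.05 and a log2 fold change of at least 2 in either direction (edgeR). Markers of other cells were among these genes, and which cells carried each transcript was not tested. Brain neutrophils and circulating neutrophils therefore stand here for the sorted libraries. Of the higher genes, 722 were protein coding, and in 602 every brain library lay above every blood library. For the lower genes these numbers were 86 and 98. Over all 28762 genes every brain library lay above every blood library for 1590, and the reverse held for 1163. The calls rest on the same libraries, so this separation is a description and no further test. Most of the higher genes were nearly silent in the blood. No blood library held a count for 267 of the 767 genes (34.8%), a further 318 (41.5%) averaged under 1 CPM there, and 18 (2.35%) averaged 100 CPM or more. Among the 1549 genes at 100 CPM or more in both groups, 64 were higher and 103 lower at the adjusted p alone. With the fold threshold as well, 0 of the 115 lower genes averaged 100 CPM or more in the brain (edgeR).

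The brain libraries did not contribute evenly. Brain replicate 4 was the highest of the 4 for 357 of the 767 higher genes (46.5%) and replicate 3 for 202 (26.3%). Replicate 3 also held a count for 19409 genes, where the other brain libraries held 15536 to 16520 and the blood libraries 15418 to 16577. With both left out, a check chosen after seeing the data, 405 genes were called higher and 113 lower. Without blood replicate 1, 486 were called higher and 96 lower. Sequencing lanes were shared only in part. In lane 1, which held 1 brain and 2 blood libraries, 761 of the 767 higher and 109 of the 115 lower genes kept their direction, a description only, since the same libraries had entered the calls. With lane as a term in the fit 474 were called higher and 96 lower. The genes given below as higher or lower with an adjusted p stayed past it under every alternative fit that gave a value, unless another outcome is stated.

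**Figure D1:**
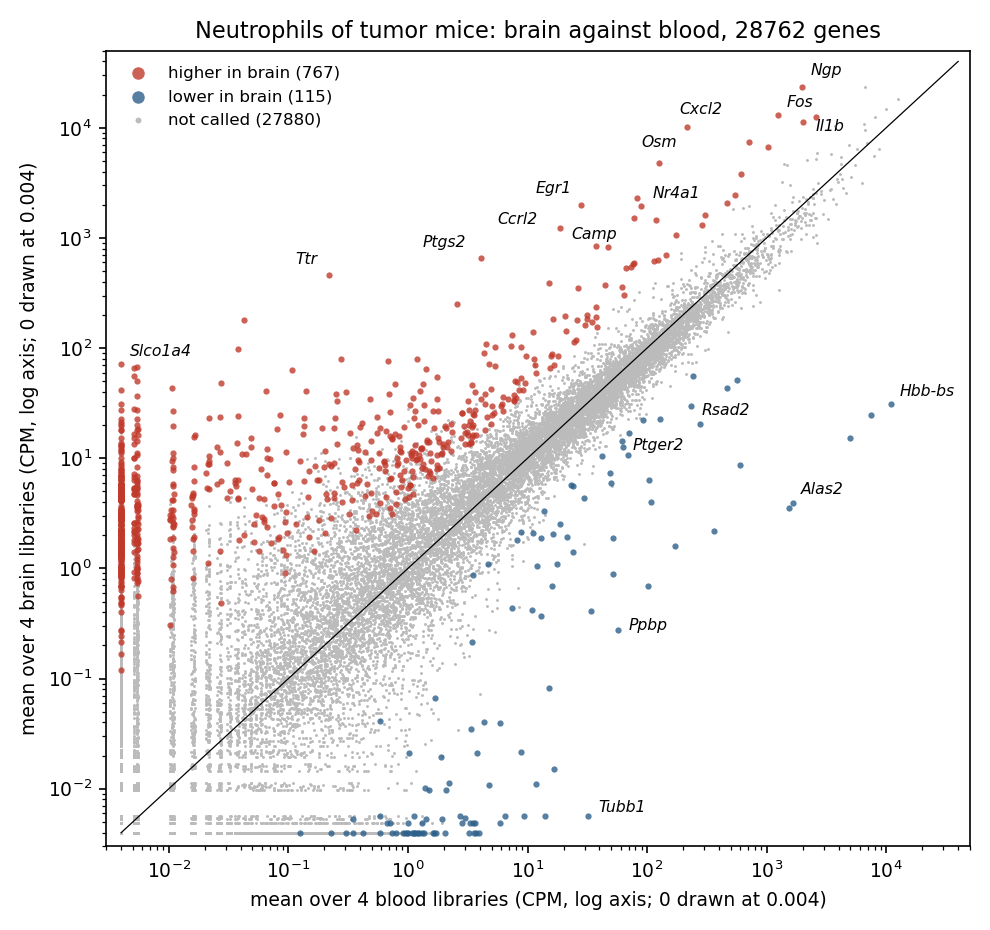
Mean level of each gene in the 4 brain libraries (vertical axis, CPM) against its mean in the 4 blood libraries of tumor mice (horizontal axis, CPM), both on log axes, with the 767 genes called higher in the brain in red and the 115 called lower in blue. Most red points sit at the left, where blood levels were under 1 CPM, while Ngp, Fos, Cxcl2, Il1b and Osm lie far above the diagonal at over 100 CPM in both groups.

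Immediate early genes, which respond to stimuli without new protein synthesis, were mostly higher in brain neutrophils. Of 24 tested members 20 were higher and 0 lower at the adjusted p alone, a threshold that 3.56% of all genes passed upwards and 1.41% downwards. Their median log2 fold change was 2.39, beside 0 over all genes tested and 0.08 over genes of at least 1 CPM. At the same adjusted p, 967 of the 12513 genes averaging this much in the brain or the blood were higher and 389 lower. Fos, a subunit of the AP-1 transcription factor (chr12:85473890-85477273 on mm10), had 14861, 11419.8, 11427 and 14488 CPM in brain neutrophils, against 476, 2043, 722 and 1729 CPM in circulating neutrophils. It was 10.5-fold higher in the brain (log2 fold change 3.39 ± 0.38 SE, adjusted p = 7.69e-06, edgeR), with a spread of more than 4-fold within the blood and little within the brain. Of its partners, Jun, Junb and Fosb rose and Jund did not pass the test. Jun had 1091, 1015, 1650.3 and 1535 CPM in the brain and 147, 185, 326 and 499.8 CPM in the blood (log2 fold change 2.19, adjusted p = 0.000508, edgeR). Junb had 12078, 9827, 8085 and 11690.3 CPM in the brain and 4258, 3927, 2896 and 3772 CPM in the blood (log2 fold change 1.49, adjusted p = 0.000189, edgeR), and part of an exon of it is shared with Prdx2. Fosb, almost silent in the blood at 0.0882 to 1.16 CPM, reached 43.7 to 123 CPM in the brain (log2 fold change 6.81, adjusted p = 1.93e-06, edgeR).

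Zinc-finger and nuclear receptor genes of the same list separated the groups further. Egr1, a zinc-finger transcription factor induced by mitogens and stress (chr18:34859823-34864984), had 1502, 1615, 2072 and 2731 CPM in brain neutrophils, against 1.77, 21.2, 15.3 and 74.1 CPM in circulating neutrophils. The lowest brain library was more than 20 times the highest blood library (log2 fold change 6.14 ± 0.70 SE, adjusted p = 1.03e-05, edgeR). Nr4a1, an orphan nuclear receptor (chr15:101254269-101274795), had 3112, 1319, 1614 and 1739 CPM in the brain and 73.7, 132, 66.6 and 80.8 CPM in the blood (log2 fold change 4.46 ± 0.31 SE, adjusted p = 1.80e-08, edgeR). Fosl1, another Fos family gene, reached 11.6 to 68.4 CPM in the brain and at most 0.375 CPM in the blood, although part of its exon sequence overlaps Ccdc85b on the other strand.

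Other members of the list were higher as well. Zfp36, whose protein tristetraprolin destabilizes cytokine mRNAs (chr7:28376784-28380253), had 14114, 10310.1, 11575 and 13676 CPM in brain neutrophils, against 2674, 2823, 2398 and 2532 CPM in circulating neutrophils. Both groups were tight (log2 fold change 2.25 ± 0.20 SE, adjusted p = 4.59e-07, edgeR). Dusp1, a phosphatase that inactivates MAP kinases (chr17:26505590-26562128), had 22741, 23101, 18869.8 and 28071 CPM in the brain and 3795, 7454, 7145 and 7974 CPM in the blood (log2 fold change 1.82 ± 0.29 SE, adjusted p = 0.00049, edgeR). Btg2, an antiproliferative gene, had 2989 to 4453 CPM in the brain and 433 to 852 CPM in the blood (log2 fold change 2.62, adjusted p = 2.79e-06, edgeR). Ier2 had 1491 to 2075 CPM in the brain and 516 to 737 CPM in the blood (log2 fold change 1.57, adjusted p = 6.27e-05, edgeR).

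Not every member of the list passed the test. Klf6 had 1256 to 1537 CPM in the brain and 1094 to 1269 CPM in the blood (adjusted p = 0.394, edgeR), Fosl2 268 to 393 CPM in the brain and 162 to 329 CPM in the blood (adjusted p = 0.358, edgeR), and Ier5 did not pass either. The heat shock chaperones, another group that responds to stress of cells, had 1 of 19 tested members higher and 0 lower, with a median log2 fold change of 0.41. Hspa8 had 242, 331, 274 and 273 CPM in the brain and 273, 179, 228 and 241 CPM in the blood (adjusted p = 0.648, edgeR). Hspa1a, an inducible chaperone, had 17.7 to 22.1 CPM in the brain and 7.23 to 28.6 CPM in the blood (adjusted p = 0.831, edgeR). The part of the warm digestion of the brain in the immediate early genes was not tested.

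**Figure D2:**
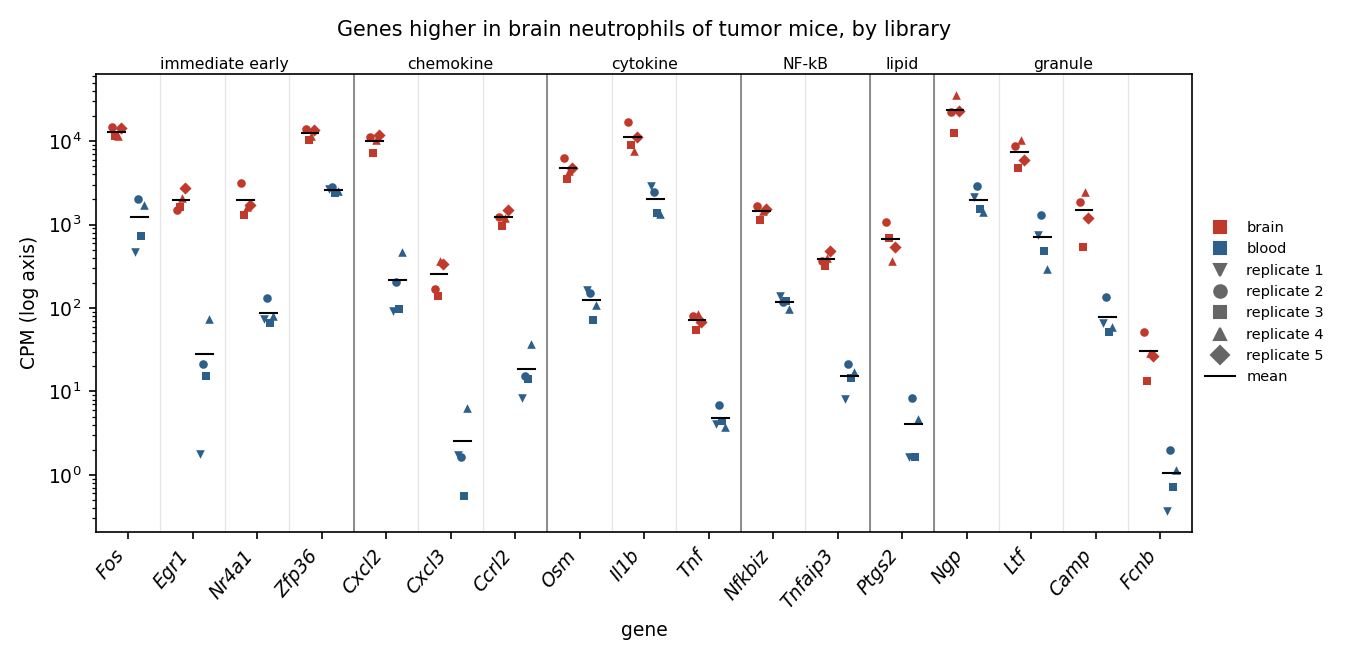
Level of 17 genes in each of the 4 brain (red) and 4 blood (blue) libraries in CPM on a log axis, with a bar at the group mean and a marker shape per replicate number. For every gene shown the lowest brain library lies above the highest blood library, as for Egr1 at 1502 against 74.1 CPM.

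Chemokine ligands, the secreted proteins that direct leukocyte migration, had 8 of 20 tested members higher in brain neutrophils and 1 lower, with a median log2 fold change of 2.23. Cxcl1, Cxcl2 and Cxcl3, ligands of the receptor Cxcr2 through which neutrophils find inflamed tissue, were among the higher ones, while of its other ligands on the list Cxcl5 did not pass the test and Ppbp was lower. Cxcl2 (chr5:90903871-90905938) had 11293, 7139, 10228 and 12012 CPM in brain neutrophils, against 93.3, 204, 98.2 and 472 CPM in circulating neutrophils. It was 46.9-fold higher in the brain (log2 fold change 5.55 ± 0.54 SE, adjusted p = 1.69e-06, edgeR), with no overlap between the groups. Cxcl3, from the same gene cluster (chr5:90786103-90789600), had 171, 141, 365 and 338 CPM in the brain and 1.72, 1.62, 0.551 and 6.37 CPM in the blood (log2 fold change 6.62 ± 0.76 SE, adjusted p = 1.03e-05, edgeR). Cxcl1 was far rarer, at 4.97 to 13.7 CPM in the brain and 0.0218 to 0.432 CPM in the blood (log2 fold change 5.34, adjusted p = 0.00128, edgeR).

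Of the 10 CC chemokines on the list Ccl2, Ccl3, Ccl4 and Ccl12 were higher and the others, Ccl5 and Ccl7 among them, did not pass the test. The call of Ccl2 (adjusted p = 0.0465, edgeR) was less stable. It held under 7 of 15 alternative fits (adjusted p = 0.00705 to 0.200 over the alternatives). Ccl3 had 114, 99.4, 121 and 82.7 CPM in the brain and 10.5, 2.92, 6.35 and 9.48 CPM in the blood (log2 fold change 3.83 ± 0.37 SE, adjusted p = 1.38e-06, edgeR). Ccl4 had 105, 121, 75.4 and 104 CPM in the brain and 6.74, 3.62, 3.42 and 7.64 CPM in the blood (log2 fold change 4.24 ± 0.38 SE, adjusted p = 4.51e-07, edgeR). Ccl12, a ligand of Ccr2, showed another order of libraries, with 16.7 CPM in brain replicate 3, 1.86 to 6.38 CPM in the other brain libraries and at most 0.174 CPM in the blood (log2 fold change 6.71, adjusted p = 0.000369, edgeR). Ppbp, the platelet chemokine, was the member that fell, with 1.05, 0.0193, 0.0213 and 0.0216 CPM in the brain and 58.6, 57.2, 13.1 and 98.2 CPM in the blood (log2 fold change -7.69 ± 1.18 SE, adjusted p = 0.000369, edgeR).

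Microglia can make several of these ligands, and their markers moved the same way. Of 17 tested microglia markers 13 were higher in the brain and 0 lower. Their sums were 4968, 7994, 3364 and 3921 CPM in the brain and 6267, 5107, 5692 and 4798 CPM in the blood, and Selplg, which neutrophils express as well, took 1812 to 2948 CPM of the brain sums and 3919 to 5393 CPM of the blood sums. Tmem119, a surface protein that defines microglia, had 75.1, 169, 40.9 and 36.4 CPM in the brain and 1.04 to 1.53 CPM in the blood. Sall1 and Siglech had no count in the blood. The sum of microglia markers, Ccl4 and Ccl12 were highest in brain replicate 3. Ccl3 was highest in replicate 4, and Cxcl2 and Cxcl3 were lowest in replicate 3. The order of 4 libraries cannot tell the sources of a transcript apart. The part of microglia in the levels of chemokines was not tested.

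Chemokine receptors had 4 of 17 tested members higher and 1 lower, with a median log2 fold change of -0.05. Ccrl2, an atypical receptor that holds the chemoattractant chemerin at the cell surface (chr9:111054486-111057519), had 1244, 958, 1214 and 1501 CPM in brain neutrophils, against 8.31, 15.3, 14.02 and 36.9 CPM in circulating neutrophils. It was 66.0-fold higher in the brain (log2 fold change 6.04 ± 0.43 SE, adjusted p = 1.80e-08, edgeR). Cxcr2 itself (chr1:74153989-74161246) went the other way, with 1639, 1494, 1232 and 1582 CPM in the brain and 4051, 2961, 3220.5 and 2802 CPM in the blood. The libraries did not overlap (log2 fold change -1.13 ± 0.27 SE, adjusted p = 0.0144, edgeR), but the call was lost with lane as a term and with brain replicates 3 and 4 left out (adjusted p = 0.000708 to 0.187 over the alternatives). Cx3cr1, the fractalkine receptor of microglia and patrolling monocytes, had 76.4, 146, 25.5 and 11.02 CPM in the brain and 0.0441 to 4.75 CPM in the blood (log2 fold change 5.50, adjusted p = 0.00339, edgeR).

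Cytokines had 7 of 22 tested members higher and 2 lower, with a median log2 fold change of 0.12. Il1b, the inflammasome-processed interleukin 1 beta (chr2:129364570-129371139), had 16918, 9074, 7675 and 11238 CPM in brain neutrophils, against 2909.9, 2464, 1395 and 1354 CPM in circulating neutrophils (log2 fold change 2.47 ± 0.32 SE, adjusted p = 5.16e-05, edgeR). Osm, which encodes the interleukin 6 family cytokine oncostatin M (chr11:4236420-4241026), had 6341, 3505, 4372 and 4756 CPM in the brain and 165, 153, 72.8 and 108 CPM in the blood. It was 38.0-fold higher in the brain (log2 fold change 5.25 ± 0.39 SE, adjusted p = 1.98e-08, edgeR), and brain replicate 2 was the highest library for both genes. Tnf (chr17:35199381-35202007) had 79.5, 54.4, 83.6 and 67.4 CPM in the brain and 4.03, 6.80, 4.45 and 3.78 CPM in the blood (log2 fold change 3.90 ± 0.43 SE, adjusted p = 6.76e-06, edgeR). Il1a had 10.7 to 30.1 CPM in the brain and 0.0432 to 1.14 CPM in the blood (log2 fold change 5.02, adjusted p = 0.000849, edgeR). Il23a, a subunit of interleukin 23, varied widely in the brain, from 0.302 to 8.29 CPM, and had 2 counts in all blood libraries (adjusted p = 5.16e-05, edgeR).

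Tnfsf14, which encodes the TNF family ligand LIGHT (chr17:57189492-57194177), was lower in the brain, with 72.3, 86.5, 59.5 and 81.9 CPM in brain neutrophils and 391, 205, 224 and 212 CPM in circulating neutrophils (log2 fold change -1.78 ± 0.27 SE, adjusted p = 0.000276, edgeR). Among cytokine receptors 3 of 26 tested members were higher and 4 lower. The lower count was 2 without brain replicate 4 or blood replicate 2 and 8 without brain replicate 3. Ifngr1, the ligand-binding chain of the interferon gamma receptor, had 451, 625, 406 and 485 CPM in the brain and 1081, 752, 946 and 999 CPM in the blood (log2 fold change -0.94 ± 0.18 SE, adjusted p = 0.00226, edgeR). Il1r1, the signalling receptor of interleukin 1 and abundant on brain endothelium, had 7.85 to 17.1 CPM in the brain and at most 0.0654 CPM in the blood (log2 fold change 8.61, adjusted p = 0.0012, edgeR). Osmr, the oncostatin M receptor, had 0.0672, 6.87, 6.67 and 12.04 CPM in the brain and no count in the blood, at least 399-fold higher when the blood is set at 3 counts over the group (adjusted p = 0.00394, edgeR). The call of another receptor was less stable. Csf3r, the receptor of G-CSF, had 3945, 3619, 1923 and 3215 CPM in the brain and 6661, 7252, 5905 and 5504 CPM in the blood. Its call (log2 fold change -0.995, adjusted p = 0.0401, edgeR) was lost without any of the blood libraries, without brain replicate 4 or 5, with both brain replicates 3 and 4 left out and with lane as a term (adjusted p = 0.00589 to 0.382 over the alternatives).

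Of 22 tested NF-kB subunits and target genes 7 were higher and 0 lower, with a median log2 fold change of 0.46. The 7 were Nfkbia, Nfkbiz, Nfkbid, Tnfaip3, Traf1, Ier3 and Gadd45b, while none of the subunits was called and the inhibitor genes Nfkbib, Nfkbie and Bcl3 did not pass the test. Of 15 alternative fits the call of Traf1 held under 8 and that of Ier3 under 10. Nfkbia, the inhibitor that holds NF-kB in the cytoplasm (chr12:55489410-55492647), had 2628, 1742, 2633 and 2835 CPM in brain neutrophils, against 272, 364, 729.8 and 807 CPM in circulating neutrophils (log2 fold change 2.18 ± 0.35 SE, adjusted p = 0.000613, edgeR). Nfkbiz, a nuclear member of the same inhibitor family (chr16:55811375-55838899), had 1673, 1138, 1444 and 1531 CPM in the brain and 139, 119, 122 and 98.3 CPM in the blood (log2 fold change 3.60 ± 0.26 SE, adjusted p = 1.98e-08, edgeR). Nfkbid, another nuclear inhibitor, had 626 to 1309.7 CPM in the brain and 31.3 to 66.2 CPM in the blood (log2 fold change 4.12, adjusted p = 1.98e-08, edgeR). The brain and blood libraries of these 3 genes lay well apart. Tnfaip3, whose protein A20 edits ubiquitin chains, had 366, 321, 399 and 480.4 CPM in the brain and 8.02, 21.1, 14.5 and 16.9 CPM in the blood (log2 fold change 4.69 ± 0.38 SE, adjusted p = 1.23e-07, edgeR). Of the subunits, Nfkb1 had 70.0 to 89.1 CPM in the brain and 89.4 to 182 CPM in the blood (adjusted p = 0.201, edgeR). Rela had 166 to 225 CPM in the brain and 205 to 249 CPM in the blood (adjusted p = 0.321, edgeR).

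Cebpb, a C/EBP factor of activated and emergency granulocytes (chr2:167688915-167690418), had 5250.1, 4125, 3932 and 5488 CPM in brain neutrophils, against 1162, 1385, 1355 and 1671 CPM in circulating neutrophils (log2 fold change 1.75 ± 0.23 SE, adjusted p = 5.74e-05, edgeR). An exon of Tmem189 on the other strand overlaps it. Ptgs2, the inducible cyclooxygenase that starts prostaglandin synthesis (chr1:150100031-150108227), was close to silent in the blood. It had 1071, 682, 364 and 538 CPM in the brain and 1.66, 8.27, 1.65 and 4.73 CPM in the blood, a 163-fold difference (log2 fold change 7.34 ± 0.51 SE, adjusted p = 1.80e-08, edgeR). Its list, prostaglandin and leukotriene synthesis, had 6 of 20 tested members higher and 3 lower. Lta4h, which makes leukotriene B4, had 390.3, 254, 459 and 303 CPM in the brain and 90.4, 134, 111 and 113 CPM in the blood (log2 fold change 1.65 ± 0.25 SE, adjusted p = 0.000382, edgeR). Alox5, the enzyme upstream of it, had 648 to 866 CPM in the brain and 624 to 822 CPM in the blood (adjusted p = 0.967, edgeR). Ptger2, a receptor of prostaglandin E2 (chr14:44988195-45003820), was lower, with 17.6, 12.1, 15.9 and 11.3 CPM in the brain and 77.3, 62.0, 57.0 and 49.3 CPM in the blood (log2 fold change -2.11 ± 0.23 SE, adjusted p = 6.05e-06, edgeR). Hpgds, a prostaglandin D synthase that microglia express, had 13.8 to 47.9 CPM in the brain, highest in replicate 3, and at most 0.218 CPM in the blood.

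The start regions of Cxcl2, Il1b and Ptgs2 are shown because these 3 genes carry the chemokine, cytokine and prostaglandin results and rose together with Fos and Cebpb. Each run spans 250 bases before to 50 after the gene start in RefSeq on GRCm38.p6, 5′ to 3′ on the gene's strand. Capitals mark matches on either strand to the C/EBP motif, spelled TTNNGNAA. The windows lie at chr5:90903649-90903948 on the plus strand for Cxcl2, chr2:129371090-129371389 on the minus strand for Il1b and chr1:150099781-150100080 on the plus strand for Ptgs2.
Cxcl2: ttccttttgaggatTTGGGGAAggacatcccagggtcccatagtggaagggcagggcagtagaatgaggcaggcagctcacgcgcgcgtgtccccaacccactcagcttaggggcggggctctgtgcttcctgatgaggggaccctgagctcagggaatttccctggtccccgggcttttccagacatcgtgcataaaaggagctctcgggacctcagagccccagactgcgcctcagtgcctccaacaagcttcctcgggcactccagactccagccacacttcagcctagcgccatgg
Il1b: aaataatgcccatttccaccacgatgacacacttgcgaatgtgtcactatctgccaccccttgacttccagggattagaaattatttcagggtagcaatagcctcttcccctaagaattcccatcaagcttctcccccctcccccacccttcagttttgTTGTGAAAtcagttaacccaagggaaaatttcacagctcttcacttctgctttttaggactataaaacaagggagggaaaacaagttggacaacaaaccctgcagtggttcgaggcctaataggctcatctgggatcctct
Ptgs2: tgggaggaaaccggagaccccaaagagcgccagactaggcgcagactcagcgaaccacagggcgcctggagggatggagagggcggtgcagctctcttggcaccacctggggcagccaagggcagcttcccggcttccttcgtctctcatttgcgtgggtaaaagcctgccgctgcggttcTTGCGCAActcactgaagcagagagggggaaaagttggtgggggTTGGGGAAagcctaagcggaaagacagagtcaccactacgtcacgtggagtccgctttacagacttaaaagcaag
The Cxcl2 and Il1b windows held 1 C/EBP match each and that of Ptgs2 held 2. Of all 32851 windows of this length, 40.7% held at least 1, so such a match is common. The AP-1 motif TGANTCA, present in 7.81% of windows, had no match in these 3 runs, and no stretch was matched by both motifs. A match is a description of letters and no binding was measured.

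Granule protein genes changed in part. Of 19 tested genes of secondary and tertiary granules 5 were higher and 0 lower, with a median log2 fold change of 0.52, and 3 were higher with lane as a term. Ngp, a cathelicidin-related granule protein, had 22259, 12411, 36229.6 and 22709 CPM in brain neutrophils, against 2115, 2889.8, 1547 and 1425 CPM in circulating neutrophils (log2 fold change 3.55 ± 0.57 SE, adjusted p = 0.000527, edgeR). Ltf, the iron-binding lactoferrin, had 8819, 4759.6, 10377 and 6009 CPM in the brain and 749.8, 1311, 484 and 290.2 CPM in the blood (log2 fold change 3.40 ± 0.61 SE, adjusted p = 0.0016, edgeR). Camp, the antimicrobial cathelicidin, had 1873, 538, 2459 and 1184 CPM in the brain and 67.0, 134, 51.9 and 58.5 CPM in the blood (log2 fold change 4.28 ± 0.59 SE, adjusted p = 0.000106, edgeR). The 3 genes shared the order of brain libraries at its ends, highest in replicate 4 and lowest in replicate 3. They also shared the blood library at which they were highest, replicate 2, yet even there they stayed under every brain library.

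The windows of these 3 genes, built in the same way, are printed because they had the largest fold changes among the 5 higher genes of the secondary and tertiary granule list. They lie at chr9:110419558-110419857 for Ngp and chr9:111019042-111019341 for Ltf on the plus strand, and at chr9:109849407-109849706 for Camp on the minus strand.
Ngp: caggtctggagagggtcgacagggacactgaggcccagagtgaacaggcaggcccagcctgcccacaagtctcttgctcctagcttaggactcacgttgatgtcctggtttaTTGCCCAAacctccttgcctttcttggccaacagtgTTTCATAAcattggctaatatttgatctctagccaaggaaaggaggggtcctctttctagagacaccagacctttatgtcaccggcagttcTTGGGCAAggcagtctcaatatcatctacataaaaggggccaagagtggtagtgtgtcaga
Ltf: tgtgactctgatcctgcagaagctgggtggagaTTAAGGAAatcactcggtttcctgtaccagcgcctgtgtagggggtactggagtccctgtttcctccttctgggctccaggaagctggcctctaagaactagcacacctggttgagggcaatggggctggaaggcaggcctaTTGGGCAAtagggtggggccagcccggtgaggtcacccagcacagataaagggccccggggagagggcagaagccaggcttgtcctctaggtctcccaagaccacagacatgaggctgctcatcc
Camp: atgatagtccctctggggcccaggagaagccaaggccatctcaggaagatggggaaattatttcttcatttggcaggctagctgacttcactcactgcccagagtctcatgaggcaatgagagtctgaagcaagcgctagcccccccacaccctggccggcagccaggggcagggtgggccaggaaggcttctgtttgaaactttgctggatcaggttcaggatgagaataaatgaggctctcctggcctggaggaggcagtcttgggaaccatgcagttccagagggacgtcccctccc
The Ngp window held 3 matches to the C/EBP motif, that of Ltf held 2 and that of Camp none, and none held the AP-1 motif. The absence of these letters from the Camp window says nothing of the factor. In all, 41 genes higher in the brain at an adjusted p under 0.05 (edgeR) were looked up, and 32 had a single window that was used. Windows on the chromosome of Egr1 and Cd14 were left out. Of the windows not printed, those of Fos, Jun, Junb, Nr4a1, Zfp36, Dusp1, Cxcl1 and Cxcl3 were among those without a C/EBP match. Those of Fcnb, Ccl3, Il1a, Tnf and Hpgds were among those with a match.

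Fcnb, which encodes a ficolin of early granules (chr2:28076378-28084885), had 52.2, 13.5, 28.8 and 26.8 CPM in brain neutrophils, against 0.371, 1.97, 0.706 and 1.14 CPM in circulating neutrophils (log2 fold change 4.85 ± 0.82 SE, adjusted p = 0.000966, edgeR). Cebpe, the factor of terminal granulocyte differentiation, had 66.1, 28.7, 79.1 and 62.3 CPM in the brain and 9.53, 14.4, 11.1 and 11.8 CPM in the blood (log2 fold change 2.33 ± 0.35 SE, adjusted p = 0.000269, edgeR). Brain replicate 3 was the lowest of its group for both. Itgb2l, an integrin subunit of granulocytes, had 390.4 to 804 CPM in the brain and 52.2 to 179 CPM in the blood (log2 fold change 2.44, adjusted p = 0.0108, edgeR), which did not pass with lane as a term (adjusted p = 0.000191 to 0.0738 over the alternatives).

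Most other granule genes were not called. Lcn2, a siderophore-binding protein, had 6746, 3071, 7977 and 5609.6 CPM in the brain and 3156, 2465, 2571 and 2334 CPM in the blood, with brain replicate 3 among the blood libraries (adjusted p = 0.154, edgeR). Mmp9, the gelatinase of tertiary granules, had 5988 to 7559 CPM in the brain and 3656 to 7608 CPM in the blood (adjusted p = 0.814, edgeR). Mmp8, the collagenase, had 9044 to 10016 CPM in the brain and 5094 to 7726 CPM in the blood (adjusted p = 0.498, edgeR). Azurophil granule genes, made earliest in the marrow, had 2 of 12 tested members higher, Fcnb among them. Mpo, the myeloperoxidase that opens this programme, had 38.2, 30.3, 0 and 0 CPM in the brain and no count in the blood, so that the 2 brain libraries with counts carried its difference (adjusted p = 0.067, edgeR). S100a8 had 8115 to 18481 CPM in the brain and 8024 to 12048 CPM in the blood, and S100a9 had 10680.1 to 23231 CPM in the brain and 9895 to 16941 CPM in the blood. These alarmin genes, among the most abundant of a mature neutrophil, did not pass the test (adjusted p = 0.271 and 0.341, edgeR).

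Of 26 tested genes of the cell cycle and DNA replication 7 were higher and 0 lower, with a median log2 fold change of 1.93, but 3 were higher without brain replicate 4 and 3 without blood replicate 1. The list summed to 940.2 to 1639.8 CPM in the brain and 952 to 989.9 CPM in the blood, so the groups overlapped in the sum. Birc5, which encodes survivin, a protein of the dividing chromosome, had 10.4, 5.38, 26.2 and 7.39 CPM in brain neutrophils, against 0, 0.548, 0.132 and 0.712 CPM in circulating neutrophils (log2 fold change 5.13 ± 1.02 SE, adjusted p = 0.00374, edgeR). Stmn1, a regulator of microtubules in cycling cells, had 9.63, 9.30, 19.8 and 7.89 CPM in the brain and 0.523, 0.894, 1.70 and 1.19 CPM in the blood (log2 fold change 3.43 ± 0.56 SE, adjusted p = 0.000642, edgeR). Brain replicate 4 led both. Which cells in the sort carried these transcripts was not tested.

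Mitochondrially encoded transcripts were higher in the brain for 6 of 9 tested members, with a median log2 fold change of 1.91, and for 3 with lane as a term. mt-Nd1, a subunit of complex I, had 132, 155, 286 and 194 CPM in brain neutrophils, against 40.9, 21.9, 38.5 and 49.0 CPM in circulating neutrophils (log2 fold change 2.35 ± 0.35 SE, adjusted p = 0.000237, edgeR). mt-Cytb, of complex III, had 219, 284, 469 and 323 CPM in the brain and 88.8, 59.3, 99.6 and 92.6 CPM in the blood (log2 fold change 1.93 ± 0.31 SE, adjusted p = 0.000599, edgeR). Of the nuclear genes of oxidative phosphorylation 4 of 77 tested were higher, with a median log2 fold change of 0.24. The 4 calls fell to 0 without blood replicate 1 and to 1 without blood replicate 2 or 3 or brain replicate 4 or 5. Of 81 cytoplasmic ribosomal protein genes 1 was higher, with a median of 0.11.

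**Figure D3:**
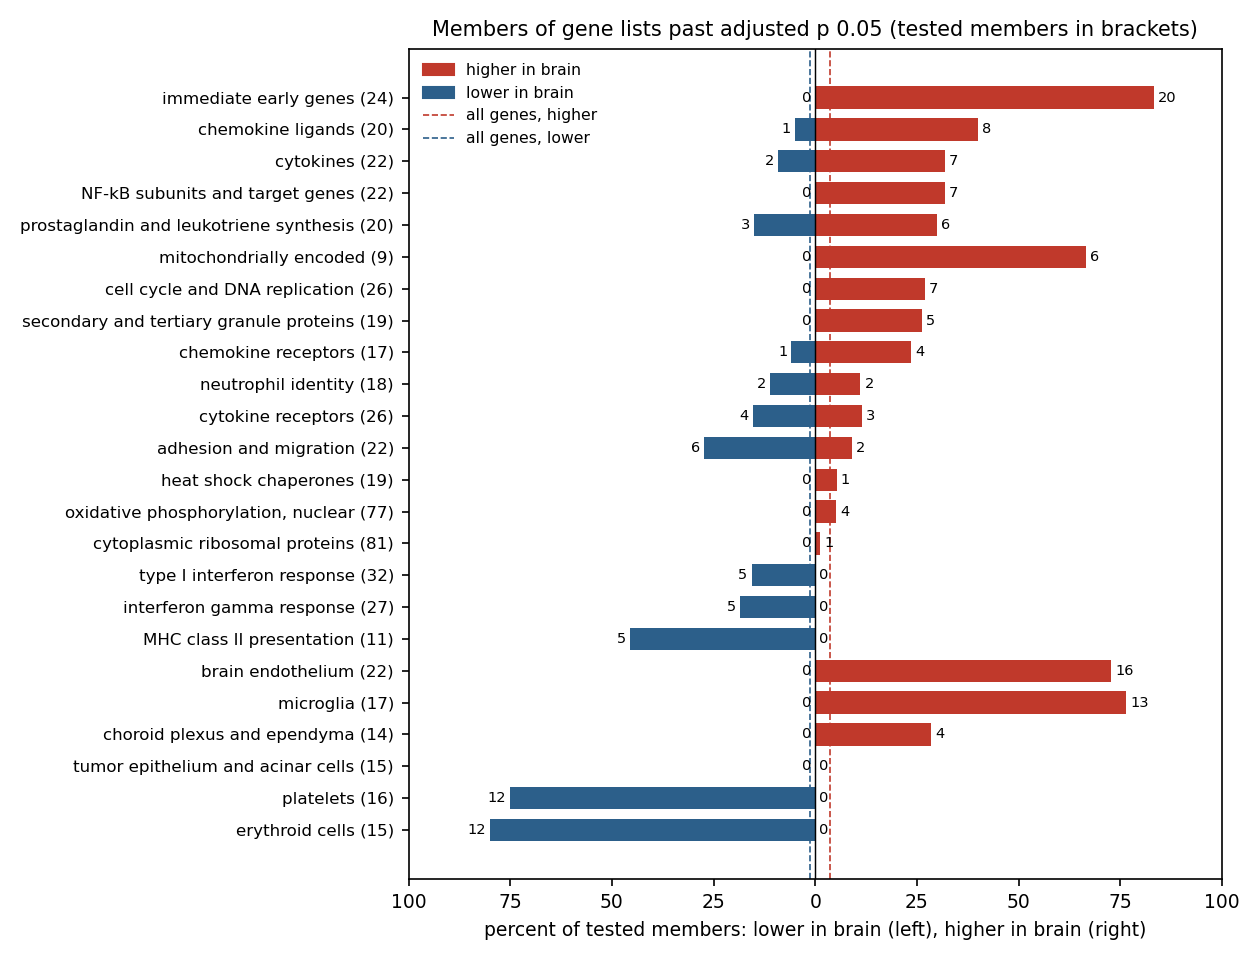
Percent of the tested members of 24 gene lists that were higher (red, to the right) or lower (blue, to the left) in brain neutrophils at an adjusted p under 0.05, with the number of members at each bar and dashed lines at the 3.56% and 1.41% of all genes. Immediate early genes reach 20 of 24 on the right and erythroid genes 12 of 15 on the left, while ribosomal protein genes reach 1 of 81 on the right. The shares among genes of at least 1 CPM were larger than those at the dashed lines.

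Most receptors that sense microbial products did not pass the test. Of 23 tested genes of pattern recognition and the inflammasome 2 were higher, Cd14 and Tlr2, and 1 was lower, Myd88, with a median log2 fold change of -0.11. The higher count was 1 without brain replicate 2, 3 or 5 or blood replicate 2, 3 or 4, and the lower count 4 without brain replicate 3 and 0 without brain replicate 4. Of 16 tested C-type lectins and Trem receptors 3 were higher and 1 lower, with a median of -0.24, and 0 were lower without brain replicate 4 or blood replicate 1 and 2 without brain replicate 2 or 3 or blood replicate 4. The 3 were Trem1, Clec4a2 and Trem2, the last a member of the microglia marker list as well. The call of Clec4a2 held under 10 of 15 alternative fits. Trem1, which amplifies inflammatory signals of myeloid cells (chr17:48232768-48246924), had 2277, 1867, 2044 and 2143 CPM in brain neutrophils, against 483, 514, 448 and 403 CPM in circulating neutrophils (log2 fold change 2.17 ± 0.26 SE, adjusted p = 1.93e-05, edgeR). Cd14, the coreceptor for lipopolysaccharide (chr18:36725067-36726798), had 5850.5, 5942, 6420.2 and 8443 CPM in the brain and 789, 672, 1085 and 1551 CPM in the blood (log2 fold change 2.70 ± 0.39 SE, adjusted p = 0.000207, edgeR). The groups did not overlap for either gene. Hcar2, the receptor of niacin and ketone bodies, had 682, 375, 547 and 517 CPM in the brain and 107, 60.2, 40.7 and 59.9 CPM in the blood (log2 fold change 2.98 ± 0.36 SE, adjusted p = 1.74e-05, edgeR). It was the 1 higher member among 16 tested chemoattractant and Fc receptors, and Ptger2 the 1 lower, while 2 were higher without brain replicate 3, 3 lower without brain replicate 2 and 2 lower without brain replicate 5. Fpr1, the formyl peptide receptor, had 596 to 761 CPM in the brain and 456 to 976 CPM in the blood (adjusted p = 1, edgeR). C5ar1 had 2254 to 2849 CPM in the brain and 2129 to 2772 CPM in the blood (adjusted p = 1, edgeR).

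Metabolic and clock genes changed for few members of their lists. Of 28 tested genes of glycolysis and the hypoxia response 4 were higher and 2 lower, with a median log2 fold change of 0.14, and 0 were lower without brain replicate 4 or blood replicate 2 and 1 without blood replicate 3 or 4. Of 16 tested circadian clock genes 2 were higher, Per1 and Nr1d1, and 1 was lower, Cry1, with 1 higher without brain replicate 4 or blood replicate 1, 3 or 4 and 0 lower without blood replicate 3 or 4. G0s2, an inhibitor of triglyceride lipolysis (chr1:193272161-193273217), had 4024, 1375, 1867 and 1906 CPM in brain neutrophils, against 59.4, 168, 37.1 and 65.0 CPM in circulating neutrophils (log2 fold change 4.80 ± 0.46 SE, adjusted p = 1.53e-06, edgeR). Per1, a clock gene that glucocorticoids also induce, had 186, 115, 165 and 181 CPM in the brain and 11.3, 22.3, 40.5 and 47.3 CPM in the blood (log2 fold change 2.41, adjusted p = 0.00138, edgeR). Cdkn1a, the cyclin-dependent kinase inhibitor p21, had 107 to 179 CPM in the brain and 7.33 to 49.8 CPM in the blood (log2 fold change 2.79, adjusted p = 0.00288, edgeR). Glucocorticoid-responsive genes did not move one way, with 5 of 15 tested members higher and 2 lower. Sgk1, a kinase of the same list (chr10:21882184-21999903), was lower, with 145, 141, 155 and 116 CPM in the brain and 642, 439.6, 493 and 330.0 CPM in the blood (log2 fold change -1.77 ± 0.29 SE, adjusted p = 0.000611, edgeR). Vegfa, the angiogenic factor, had 45.7 to 61.7 CPM in the brain and 14.6 to 26.0 CPM in the blood (log2 fold change 1.27, adjusted p = 0.00502, edgeR). Inhba, an activin subunit, had 27.0, 30.5, 70.5 and 32.3 CPM in the brain and 7.24, 2.92, 2.45 and 1.86 CPM in the blood (log2 fold change 3.47, adjusted p = 0.000423, edgeR).

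Of 13 tested genes of the NADPH oxidase and NET formation 3 were higher, Cybb, Ncf1 and Hvcn1, and 0 lower, with 1 higher with lane as a term. Hvcn1, the proton channel that sustains the oxidative burst, had 17.7, 15.8, 20.5 and 15.8 CPM in brain neutrophils, against 2.83, 4.33, 2.78 and 2.57 CPM in circulating neutrophils (log2 fold change 2.48 ± 0.33 SE, adjusted p = 7.61e-05, edgeR). Exons of Tctn1 on the other strand overlap it. Serpins had 6 of 14 tested members higher and 0 lower. Among the higher ones were Serpine2 and Serpinh1, with log2 fold changes of 3.88 to 4.63 and 10.6 to 11.9 over the alternatives. Which cells in the sort carried the serpin transcripts was not tested. Serpinb1a, an inhibitor of neutrophil serine proteases, had 583, 378, 862 and 699.6 CPM in the brain and 156, 161, 97.6 and 82.8 CPM in the blood (log2 fold change 2.34 ± 0.39 SE, adjusted p = 0.00088, edgeR). Among 16 tested genes of the Bcl2 family, which decides on apoptosis, Bbc3 alone was called. This gene of the pro-apoptotic protein PUMA had 17.1, 15.98, 11.2 and 12.2 CPM in the brain and 51.0, 42.2, 33.6 and 33.6 CPM in the blood (log2 fold change -1.51 ± 0.26 SE, adjusted p = 0.00115, edgeR).

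Interferon-responsive and antigen presentation genes leaned to lower levels in the brain. Of 32 tested type I interferon response genes 0 were higher and 5 lower, with a median log2 fold change of -0.84. The count turned on single libraries, with 1 lower without brain replicate 4 or with lane as a term, 3 without brain replicate 5 or blood replicate 1, 2 or 3, 8 without brain replicate 2 and 9 without brain replicate 3. Rsad2, the antiviral protein viperin (chr12:26442746-26456452), had 66.7, 30.1, 7.503 and 14.4 CPM in brain neutrophils, against 73.2, 204, 218 and 445 CPM in circulating neutrophils (log2 fold change -2.98 ± 0.55 SE, adjusted p = 0.00212, edgeR). The highest brain and the lowest blood library were nearly level. Irgm2, an interferon-inducible GTPase that overlaps Igtp, had 6.74, 49.5, 15.2 and 19.3 CPM in the brain and 193, 129.9, 131 and 61.6 CPM in the blood (log2 fold change -2.51 ± 0.51 SE, adjusted p = 0.00465, edgeR).

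MHC class II genes had 5 of 11 tested members lower and 0 higher, with a median log2 fold change of -1.51, and 3 lower with brain replicates 3 and 4 left out. H2-Ab1 had 28.3, 26.7, 24.6 and 9.33 CPM in brain neutrophils, against 66.4, 43.7, 148 and 111 CPM in circulating neutrophils (log2 fold change -2.05 ± 0.42 SE, adjusted p = 0.00539, edgeR). B cells express these genes too, and of 17 tested B cell markers 4 were lower in the brain. The B cell list summed to 38.1 to 109 CPM in the brain and 105 to 185 CPM in the blood, and its count was 2 without brain replicate 4 or 5 or blood replicate 1 or 2. Blk had no count in the brain, at least 68.7-fold under the blood with the brain set at 3 counts over the group (adjusted p = 0.00368, edgeR). Microglia and border macrophages, whose markers were higher in the brain, express MHC class II genes as well. The part of these cells in the MHC class II values was not tested.

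Adhesion and migration genes had 6 of 22 tested members lower and 2 higher, and 3 lower without brain replicate 4 or blood replicate 2. Itgal, the alpha chain of LFA-1, had 458, 399, 208 and 271 CPM in brain neutrophils, against 794, 1133, 675 and 504 CPM in circulating neutrophils (log2 fold change -1.22, adjusted p = 0.0249, edgeR). This call was lost without blood replicate 2, brain replicate 4 or brain replicate 5, with both brain replicates 3 and 4 left out and with lane as a term (adjusted p = 0.00293 to 0.183 over the alternatives). Itgb3, an integrin of platelets and other cells, had 5.26, 7.68, 2.85 and 13.6 CPM in the brain and 38.6, 79.0, 15.6 and 62.6 CPM in the blood (log2 fold change -2.73 ± 0.50 SE, adjusted p = 0.00199, edgeR). Fgl2, a prothrombinase of leukocytes (chr5:21372642-21378374), had 1087, 1341, 393 and 786 CPM in the brain and 2930.0, 2928, 2482 and 2267 CPM in the blood (log2 fold change -1.56 ± 0.28 SE, adjusted p = 0.00162, edgeR).

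**Figure D4:**
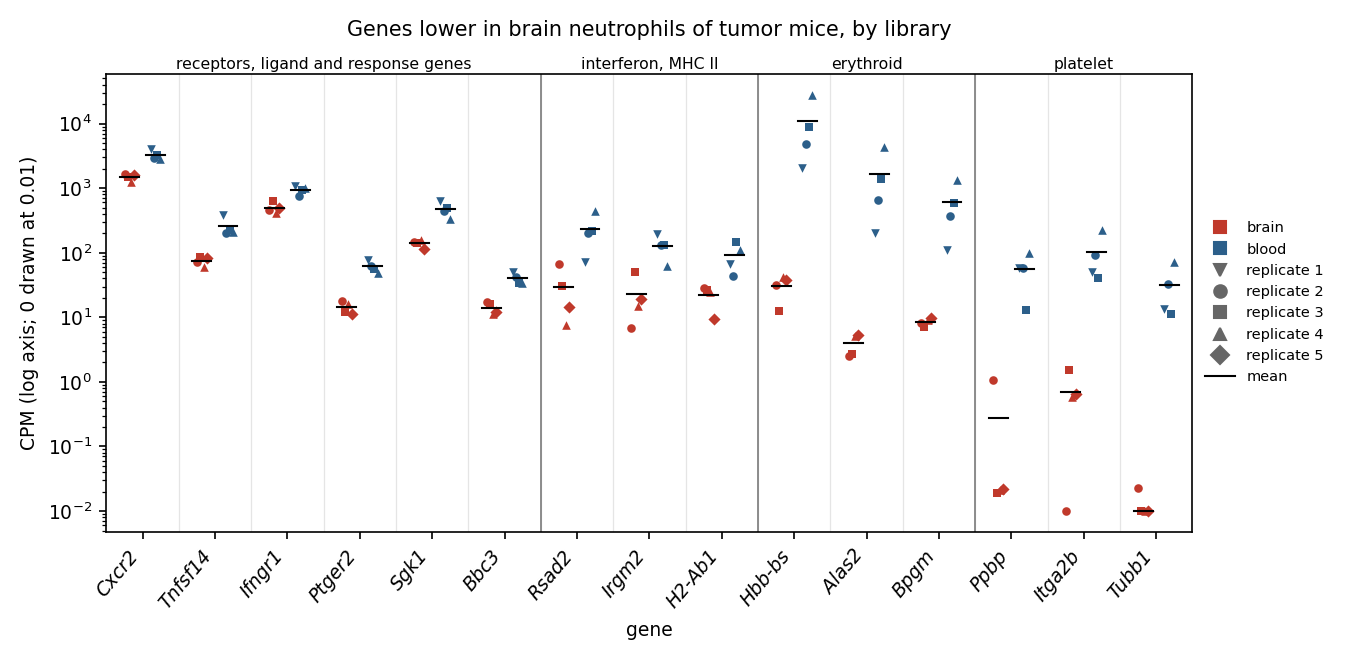
Level of 15 genes lower in the brain in each of the 4 brain (red) and 4 blood (blue) libraries in CPM on a log axis, with a bar at the group mean and a marker shape per replicate number. Ptger2 and Sgk1 separate the groups without overlap, whereas the blood libraries spread more than 10-fold for Hbb-bs, at 2022 to 28134 CPM, and the lowest blood library of Rsad2 comes close to the highest brain library.

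Marker genes of other cells were among the changed genes. Marker lists of cell types other than neutrophils, with 272 tested members, took 65 of the 767 higher genes and 30 of the 115 lower ones. These counts leave out genes of such cells that are on no list. Slco1a4, an organic anion transporter of the blood-brain barrier (chr6:141805440-141856199), had 66.8, 42.5, 139.7 and 37.4 CPM in brain libraries and no count in blood libraries, at least 4457-fold higher when the blood is set at 3 counts over the group (adjusted p = 3.18e-06, edgeR). Igfbp7, a secreted protein of vessels, had 67.2, 30.3, 137 and 36.1 CPM in the brain and 1 count in all blood libraries. Cldn5, the tight junction protein, had 12.1 to 81.2 CPM in the brain and 1 count in the blood. Brain replicate 4 was the highest for all 3 genes. Of 22 tested brain endothelium markers 16 were higher and 0 lower, with a median log2 fold change of 6.50 and sums of 1204, 849.8, 1871 and 912 CPM in the brain and 356 to 445 CPM in the blood.

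Mural and fibroblast markers followed the endothelium. Of 14 tested markers of pericytes and other mural cells 7 were higher, and 4 with brain replicates 3 and 4 left out. They summed to 67.3 to 272 CPM in the brain and 9.50 to 19.99 CPM in the blood. Acta2, the smooth muscle actin, had 95.5, 39.0, 117 and 24.8 CPM in the brain and 10.5, 4.20, 4.15 and 2.33 CPM in the blood (log2 fold change 3.70, adjusted p = 0.00049, edgeR). Of 12 tested meningeal fibroblast markers 7 were higher, but 3 without brain replicate 4 or blood replicate 1, 3 or 4 and 4 without blood replicate 2. Eln, which encodes elastin, had 13.7, 8.61, 82.8 and 19.96 CPM in the brain and no count in the blood.

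Microglia and macrophage markers had another leading library. Siglech had 41.8, 92.4, 13.4 and 18.5 CPM in the brain and none in the blood, at least 2586-fold higher by the same bound (adjusted p = 0.00139, edgeR). C1qc, a chain of complement C1q, had 219, 766, 253 and 175 CPM in the brain and 10.97, 4.57, 44.2 and 45.0 CPM in the blood (log2 fold change 3.75 ± 0.68 SE, adjusted p = 0.00177, edgeR). Brain replicate 3 was the highest for both. Border macrophage markers had 5 of 10 tested members higher, and 2 without brain replicate 3. Cd163, a hemoglobin scavenger receptor, had 60.8 CPM in that library, 8.71 to 11.7 CPM in the other brain libraries and at most 0.950 CPM in the blood.

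Choroid plexus transcripts set brain replicate 4 apart. Ttr, the thyroxine carrier that the choroid plexus secretes, had 18.3, 83.4, 1648 and 108 CPM in brain libraries and 0.0654, 0.264, 0.0882 and 0.453 CPM in blood libraries (log2 fold change 11.04 ± 1.37 SE, adjusted p = 2.70e-05, edgeR). Enpp2, which encodes autotaxin, had 21.1, 20.4, 664 and 17.2 CPM in the brain and 0.0221 to 0.0654 CPM in the blood (log2 fold change 11.96 ± 2.00 SE, adjusted p = 0.000826, edgeR). The list had 4 of 14 tested members higher, and 2 without brain replicate 4 or without any of the blood libraries. Astrocyte markers had 8 of 14 higher and 5 with brain replicates 3 and 4 left out. Sparcl1, a matrix protein of astrocytes and vessels, had 65.3, 80.3, 67.9 and 41.4 CPM in the brain and 0.0406 to 0.196 CPM in the blood (log2 fold change 9.18, adjusted p = 1.12e-05, edgeR). Neuronal markers had 1 of 14 higher and summed to 2.42 to 88.7 CPM in the brain, highest in replicate 3, and 0.595 to 3.78 CPM in the blood. Markers of tumor epithelium and acinar cells had 0 of 15 tested members higher and 0 lower (edgeR).

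**Figure D5:**
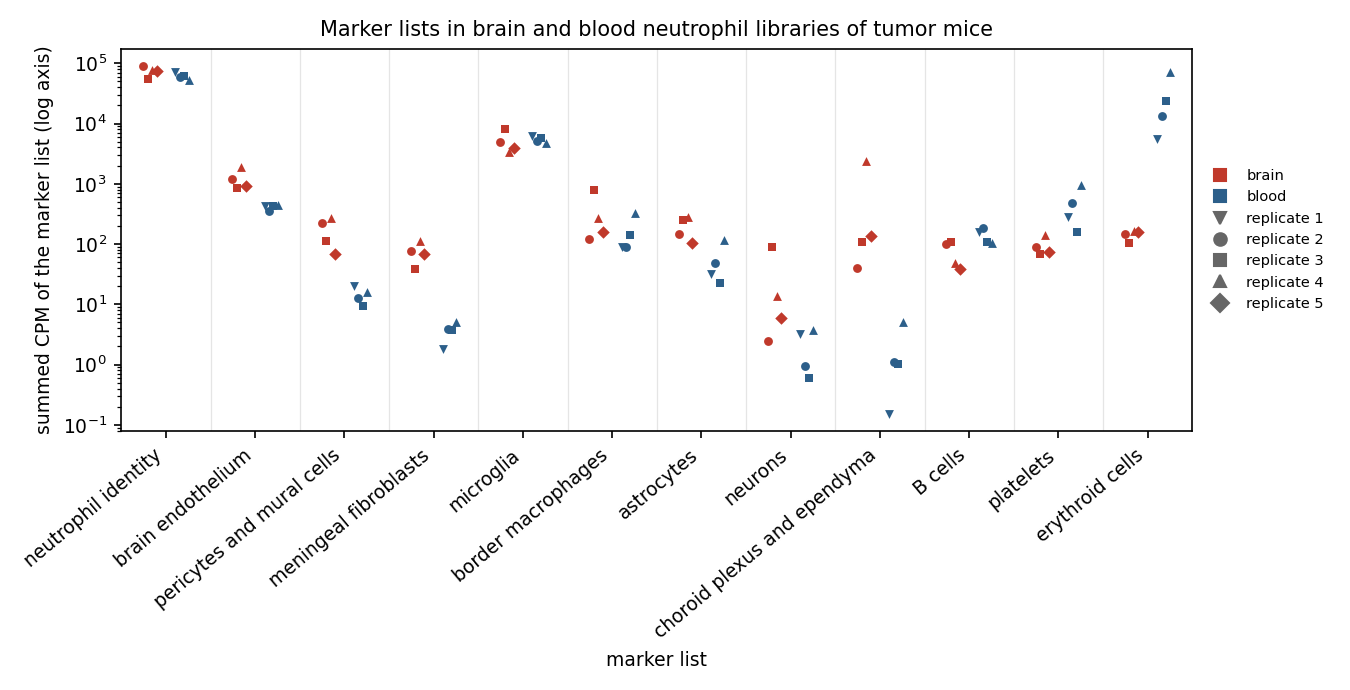
Summed CPM of 12 marker lists in each of the 4 brain (red) and 4 blood (blue) libraries of tumor mice on a log axis, with a marker shape per replicate number. Brain replicate 4 stands out for choroid plexus at 2389 CPM and brain replicate 3 for border macrophages at 775.5 CPM, while erythroid genes reach 5535 to 70249.8 CPM in the blood only.

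Red cell and platelet genes were among the lower genes, with 12 of the 115 on the erythroid list and 12 on the platelet list. Of 15 tested erythroid genes 12 were lower in the brain and 0 higher, and the sums were 103 to 166 CPM in brain libraries and 5535 to 70249.8 CPM in blood libraries. Hbb-bs, an adult beta globin, had 31.99, 12.4, 41.6 and 38.4 CPM in the brain and 2022, 4787, 8940.2 and 28134 CPM in the blood (log2 fold change -8.46 ± 0.99 SE, adjusted p = 1.32e-05, edgeR). Its near copy Hbb-bt may share reads with it. Alas2, the first enzyme of heme synthesis in red cell precursors (chrX:150547375-150570638), had 2.55, 2.73, 5.16 and 5.34 CPM in the brain and 201, 645, 1392 and 4367 CPM in the blood (log2 fold change -8.71 ± 1.06 SE, adjusted p = 2.12e-05, edgeR). Exons of Apex2 overlap it. Bpgm, which makes the hemoglobin regulator 2,3-bisphosphoglycerate, had 7.14 to 9.94 CPM in the brain and 111 to 1344 CPM in the blood (log2 fold change -6.13 ± 0.52 SE, adjusted p = 2.10e-07, edgeR). Blood replicate 4 was the highest and blood replicate 1 the lowest library for all 3 genes. Fech, the last enzyme of heme synthesis, had 32.1 to 58.0 CPM in the brain and 90.6 to 1047 CPM in the blood with the same libraries at the ends (log2 fold change -3.42, adjusted p = 6.57e-05, edgeR).

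Of 16 tested platelet genes 12 were lower and 0 higher, with sums of 67.7 to 142 CPM in brain libraries and 157 to 967 CPM in blood libraries. Tubb1, the beta tubulin of platelets (chr2:174450695-174457882), had 1 count in all brain libraries and 13.3, 32.3, 11.1 and 71.5 CPM in blood libraries (log2 fold change -12.02 ± 1.52 SE, adjusted p = 3.65e-05, edgeR). Itga2b, the platelet integrin chain, had 0, 1.55, 0.574 and 0.648 CPM in the brain and 50.7, 91.4, 40.4 and 222 CPM in the blood (log2 fold change -7.17 ± 1.03 SE, adjusted p = 0.000195, edgeR). T cell markers had 1 of 16 tested members lower and NK cell markers 1 of 14, with 0 higher. The part that perfusion of the brain and lysis of red cells in the blood had in these genes was not tested.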

How the data were processed

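RNA of neutrophils sorted from 5 sources was amplified with SMART-Seq v4, which does not mark the strand, and sequenced as single reads with 4 libraries per lane. The authors deposited unnormalized whole-number counts, 1 value per library and Ensembl gene. The submitters' processing notes name mm10 and DESeq2, with the aligner and counting tool not given in the sources used here. Values of overlapping genes and paralogs are therefore uncertain. The deposited rlog values, on a log2 scale, were not used. Reads carry no molecular identifiers, so bounds cover counting error only.

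Of 51918 entries, 6 repeats of a gene were dropped. The 28762 genes detected in 1 or more libraries entered, after TMM scaling, a quasi-likelihood fit in edgeR 4.0.16 (limma 3.58.1, R 4.3.3) in 1 model over the 20 libraries, brain minus blood, with Benjamini-Hochberg adjustment over all genes and two-sided p-values. Residual degrees of freedom were 15. Figures and tables used Python 3.11.15, pandas 2.3.3, numpy 2.4.6 and matplotlib 3.10.9. Gene positions come from GENCODE M21 (mm10). The script was tested on simulated data.

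Alternatives were DESeq2 1.42.0, its size factors, filterByExpr of edgeR, lane as a term, the 8 compared libraries alone, a replicate block and each library left out. The fold threshold, printed incompletely in the study's methods, was read as 2 on the log2 scale. Named genes were the 20 largest changes per direction of at least 10 CPM without overlap, the most abundant changed genes, and up to 4 members per list past the threshold. Members and lists were chosen with earlier results of these data known. Of the genes named, Egr1, Jun, Fosb, Fosl1, Btg2, Ier2, Fosl2, Ier5, Jund, Klf6, Hspa8, Hspa1a, Cxcl1, Ccl12, Tnf, Il1a, Il23a, Il1r1, Osmr, Tnfaip3, Nfkb1, Rela, Nfkbib, Nfkbie, Bcl3, Ccl5, Ccl7, Cxcl5, Alox5, Hpgds, Itgb2l, Lcn2, Mmp9, Mpo, Fpr1, C5ar1, Tmem119, Sall1, Selplg and Cldn5 were chosen after their values were seen. Results for some genes are not reported here.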

Additional observations from a re-analysis of the deposited data

Results flagged for a closer look

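Among 67 genes, each looked at in the brain and in the blood group, 6 had a library far from the other 3 of its group by Dixon's ratio. The rule flags about 1 in 20 groups of independent, normally spread values. Genes here shared leading libraries, as Ttr and Enpp2 did in brain replicate 4, so the number of flags cannot be weighed against chance. Brain replicate 4 stood apart for Eln (82.8 CPM, next library 19.96) and Ttr (1648 CPM, next 108). Brain replicate 2 stood apart for the blood genes Ppbp (1.05 CPM, next 0.0216) and Slc4a1 (3.54 CPM, next 0.0387) and for Apol11b (6.32 CPM, next 0.0387), all 3 far under the blood. Brain replicate 3 stood apart for the interferon-inducible Ifi209 (3.95 CPM, next 0.173).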

How the results depend on the processing

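The main counts were 767 genes higher and 115 lower in the brain, and 1023 and 405 at the adjusted p alone. DESeq2 called 1510 higher and 363 lower, and 2212 and 1156 at the adjusted p alone. With lane as a term 474 were higher, and 561 higher and 148 lower at the adjusted p alone. With brain replicates 3 and 4 left out, chosen after seeing the data, these were 405, 526 and 193, and Nos1 reversed to a log2 fold change of -0.44; the cause was not tested. Leaving out 1 library each gave 486 to 820 higher and 91 to 158 lower genes, and 627 to 1021 higher and 264 to 511 lower at the adjusted p alone. The lowest counts of higher genes came without blood replicate 1. With the replicate block 700 were higher and 87 lower, 957 and 491 at the adjusted p alone. Same-numbered libraries correlated at 0.041, 0.0037 and 0.044 in their deviations, each under the 0.1 set for pairing, and brain replicate 2 correlated best with blood replicate 1, so pairing by number was not shown. With filterByExpr 870 were higher and 165 lower, with the 8 compared libraries alone 580 and 84, and with the size factors of DESeq2 771 and 114. Of 248 named genes past the adjusted p, 136 stayed past it under every alternative that gave a value. Low counts in both groups limit what this depth can show.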
